A study of Mus musculus with 6 samples.

Results

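Cycling crypt stem cells are described here in mouse intestinal organoids 4 days after seeding, in the vehicle, retinoic acid and vitamin A-free libraries. They were chosen by 2 sums of UMIs (counts of distinct RNA molecules) per barcode: at least 5 of the stem cell markers Lgr5 and Olfm4, and at least 3 of the proliferation markers Mki67 and Top2a. The rule selected 1070 of the 15115 barcodes of these libraries, and 29565 barcodes were measured in the series. There were 373 such cells with vehicle, 151 with retinoic acid and 546 without vitamin A.

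The organoids came from C57BL/6 wild type mice aged 8 weeks, 2 animals in duplicate per the series' design text, and the labels do not tie a library to an animal. From day 0 to day 3 all cultures had EGF, Noggin and R-spondin with Wnt3a-conditioned medium, a ROCK inhibitor and the GSK3 inhibitor CHIR99021, and afterwards EGF, Noggin and R-spondin alone (ENR medium). DMSO was the vehicle, all-trans retinoic acid (atRA) was labelled as 10 µM and an RXR antagonist as 5 µM, each given at day 0 and again at day 3, with the unit written as "μm" in the labels. A further day-4 culture had no vitamin A, and whether it received DMSO is not given in the sources used here. Cells were taken at 96 hours, or at 24 hours for 2 day-1 vehicle libraries, and sorted to discard debris and dead cells. Each day-4 condition was 1 library, so differences between conditions are given by size, without a test, and the 95% intervals cover counting error only.

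Crypt base columnar stem cells divide at the bottom of the intestinal crypt and feed the transit-amplifying cells that become absorptive enterocytes or secretory cells. Wnt signals amplified by R-spondin through Lgr5 hold the stem cell state, and Ascl2 is a transcription factor of that state. Retinoic acid, made from vitamin A, binds RAR and RXR nuclear receptors, and RXR is also the partner of PPAR, FXR and LXR. Dividing cells pass from DNA replication, with its MCM helicase and histone genes, to mitosis, with its kinesins, Aurora kinases and Plk1.

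The promoters of genes that stood highest in cycling over non-cycling stem cells are shown because they share 2 short motifs. Sequences are from RefSeq (GRCm38.p6), from 250 bases before to 50 after a start, 1 promoter per gene, searched on both strands for CCAAT and for TTTGAA, the cell cycle homology element. Among the 12 highest genes 9 had a promoter in the table, and 7 of the 9 (77.8%) held both motifs, against 7.12% of 27025 promoters. Capitals mark the matches, on either strand.
Aurka (chr2:172370521-172370820, minus strand): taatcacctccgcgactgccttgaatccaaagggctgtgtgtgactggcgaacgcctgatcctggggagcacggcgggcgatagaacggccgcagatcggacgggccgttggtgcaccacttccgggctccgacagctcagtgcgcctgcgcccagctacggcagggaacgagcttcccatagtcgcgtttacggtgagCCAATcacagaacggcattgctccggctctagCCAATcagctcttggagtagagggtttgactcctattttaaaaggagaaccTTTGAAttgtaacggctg
Plk1 (chr7:122159185-122159484, plus strand): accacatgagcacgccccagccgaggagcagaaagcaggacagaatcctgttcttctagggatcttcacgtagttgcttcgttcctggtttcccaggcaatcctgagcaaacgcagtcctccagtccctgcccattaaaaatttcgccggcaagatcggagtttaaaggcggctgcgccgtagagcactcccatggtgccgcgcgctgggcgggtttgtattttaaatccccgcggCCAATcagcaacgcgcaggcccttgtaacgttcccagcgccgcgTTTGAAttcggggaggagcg
Prc1 (chr7:80294201-80294500, plus strand): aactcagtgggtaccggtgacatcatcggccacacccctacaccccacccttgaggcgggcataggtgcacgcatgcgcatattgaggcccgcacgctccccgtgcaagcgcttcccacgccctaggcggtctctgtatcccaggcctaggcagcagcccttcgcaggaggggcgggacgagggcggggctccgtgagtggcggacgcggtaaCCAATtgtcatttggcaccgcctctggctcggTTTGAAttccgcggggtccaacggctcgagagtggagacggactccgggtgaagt

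A second set is shown because its genes moved together under retinoic acid. ACGTG, the core of the hypoxia response element, was searched in the same way and marked in capitals. It was found in 14 of 25 matched promoters of the glycolysis and hypoxia list (56.0%) and in 7 of 11 matched promoters of the 12 genes lowest with retinoic acid (63.6%). It was also found in 7 of 19 matched promoters of the crypt stem cell list (36.8%), and in 19.7% of all promoters. The first 2 sets share genes, and a match is a description of the letters only.
Slc16a3 (chr11:120948817-120949116, plus strand): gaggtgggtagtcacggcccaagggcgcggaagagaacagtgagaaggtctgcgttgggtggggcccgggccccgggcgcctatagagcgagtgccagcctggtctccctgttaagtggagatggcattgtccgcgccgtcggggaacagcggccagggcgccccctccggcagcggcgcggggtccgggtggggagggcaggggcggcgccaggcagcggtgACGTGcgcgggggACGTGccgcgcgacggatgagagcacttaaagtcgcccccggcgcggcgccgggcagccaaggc
Bnip3 (chr7:138909457-138909756, minus strand): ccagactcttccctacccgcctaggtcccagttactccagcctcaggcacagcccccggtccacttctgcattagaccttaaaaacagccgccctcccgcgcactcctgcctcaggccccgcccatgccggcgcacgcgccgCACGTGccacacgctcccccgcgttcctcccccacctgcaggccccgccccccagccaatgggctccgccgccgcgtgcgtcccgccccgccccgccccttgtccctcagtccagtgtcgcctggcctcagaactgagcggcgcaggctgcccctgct
Ankrd37 (chr8:45999801-46000100, minus strand): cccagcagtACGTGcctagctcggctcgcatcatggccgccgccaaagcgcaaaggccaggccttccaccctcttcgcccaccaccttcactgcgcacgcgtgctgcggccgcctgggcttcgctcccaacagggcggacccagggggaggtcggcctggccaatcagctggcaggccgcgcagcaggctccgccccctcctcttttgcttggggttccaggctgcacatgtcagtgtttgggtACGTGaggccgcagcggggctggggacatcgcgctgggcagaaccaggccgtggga

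The values that chose the cells were as follows. The median sum of Lgr5 and Olfm4 was 20 UMIs per cell with vehicle, 16 with retinoic acid and 22 without vitamin A, and that of Mki67 and Top2a was 12, 10 and 13. Olfm4 supplied 90.9%, 93.0% and 89.9% of the stem marker UMIs. Lgr5 had a UMI in 85.3% of the selected cells with vehicle, 63.6% with retinoic acid and 92.5% without vitamin A, at median depths of 13370, 12947 and 12710 UMIs. In all other barcodes, which include stem cells outside the cycling rule, these shares were 12.8%, 1.94% and 25.8% at 10660.5, 11762.5 and 9773 UMIs. The selected cells made up 7.79% of barcodes with vehicle (exact binomial 95% interval 7.05 to 8.59), 2.81% with retinoic acid (2.39 to 3.29) and 11.0% without vitamin A (10.1 to 11.9). With every cell thinned to 5000 UMIs, which left out 368, 294 and 197 shallower cells, the shares were 4.21%, 1.30% and 5.79%, in the same order. The same sums selected 3 of 3570 barcodes with the RXR antagonist and 4 of 5576 and 2 of 5304 on day 1.

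Cells just inside and just outside the thresholds were compared in genes outside the rule. With vehicle, the summed level of a list of 26 crypt stem cell genes was 2575 CPM (UMIs as a share of all UMIs of those cells, times 1e+06) in the 21 cycling cells with 5 stem marker UMIs and 2620 CPM in the 37 with 4. The summed level of the mitosis list was 3262 CPM in the 31 stem cells with 3 cycling marker UMIs and 3074 CPM in the 37 with 2. Without vitamin A the stem list stood at 2968 CPM in 39 cells inside and 2734 CPM in 40 outside, and with retinoic acid at 2901 CPM in 8 cells and 2675 CPM in 9. The mitosis list at the cycling threshold stood at 2939 against 2554 CPM without vitamin A and 3758 against 3748 CPM with retinoic acid. The enterocyte list differed more in some of these small groups. With retinoic acid it stood at 9301 CPM inside and 30928 CPM outside the stem threshold, and with vehicle at 9614 CPM inside and 6451 CPM outside the cycling threshold.

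The label was checked against markers that the rule did not use, as a description. Epithelial genes led by Epcam were present in every selected cell. The crypt stem cell list, which does not include Lgr5 or Olfm4, summed to 3295 CPM with vehicle, 3330 CPM with retinoic acid and 3625 CPM without vitamin A, against 1161, 1167 and 1249 CPM in cycling cells without a stem marker UMI. In non-cycling stem cells, defined below, it was higher than in the selected cells, at 3604, 3633 and 4345 CPM. Tuft cell markers summed to at most 5.50 CPM, immune markers to at most 5.04 CPM and fibroblast and smooth muscle markers to at most 3.03 CPM. Endothelial markers summed to 20.1, 13.7 and 24.6 CPM, nearly all of it Egfl7, with 3 of 5 genes at 0. M cell markers summed to 115, 183 and 132 CPM, of which Marcksl1 gave 110, 156 and 124 CPM, with 3, 2 and 3 of 7 genes at 0. Goblet, Paneth and enterocyte markers were present and are given beside the results they touch. No barcode was shared between the selected cells of different libraries. High Scrublet scores, the top 0.8% per 1000 barcodes, marked 17 of 373, 5 of 151 and 31 of 546 selected cells as likely doublets.

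Stem marker UMIs followed a gradient of other genes among cycling cells. With vehicle, the stem list summed to 1161 CPM in cells with no Lgr5 or Olfm4 UMI, 2091 CPM with 1 to 4, 2788 CPM with 5 to 9, 3087 CPM with 10 to 19 and 3600 CPM with 20 or more. Enterocyte genes went the other way, from 14385 CPM with none to 6933 CPM with 1 to 4 and then 5052 to 5587 CPM. With retinoic acid the enterocyte list stood at 34266, 18018, 5503, 7531 and 9250 CPM along these bins, the last in 60 cells. It was thus lower in all 3 bins of selected cells than in the bins outside them. The glycolysis and hypoxia list was lower with retinoic acid in all 5 bins, at 6624 to 8551 CPM against 14913 to 18490 CPM with vehicle.

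**Figure D1:**
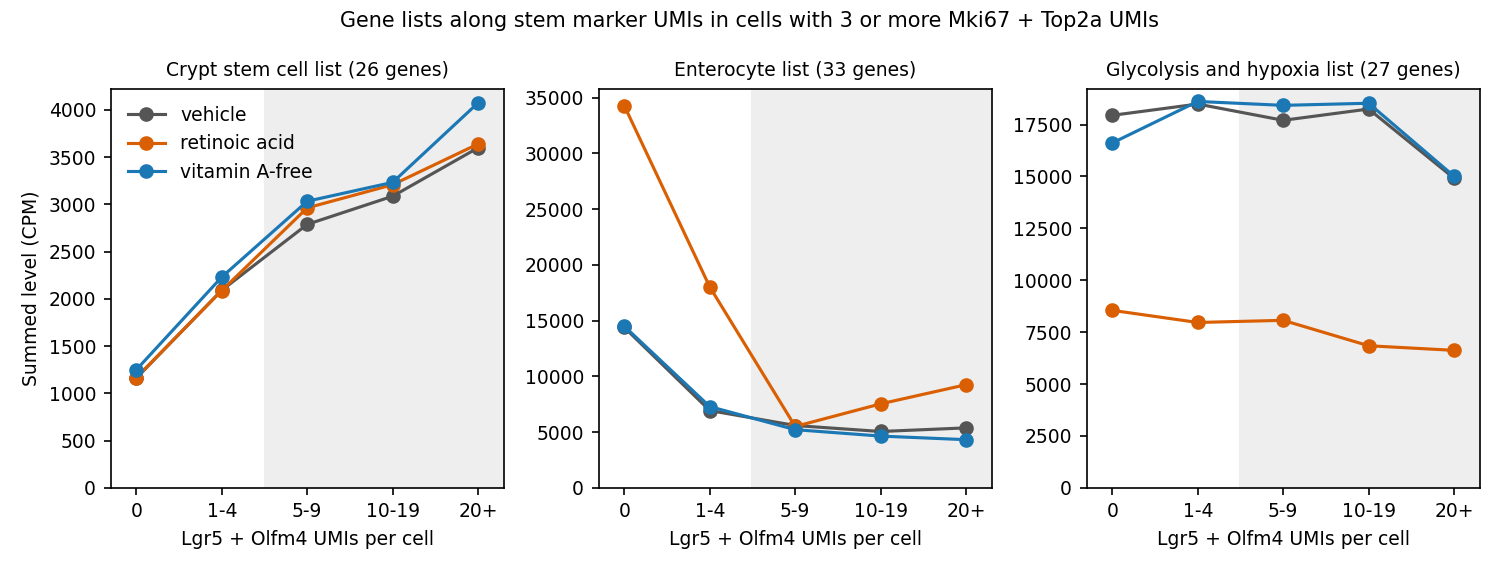
Summed level (CPM) of 3 gene lists in cycling cells (Mki67 and Top2a sum of 3 or more) by Lgr5 and Olfm4 UMIs per cell, 1 line per library, with the selected cells in the grey area. The stem list goes up from left to right in every library, the enterocyte list is higher outside the grey area than within it, and the glycolysis and hypoxia list is lowest with retinoic acid in every bin.

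Cycling stem cells were first set against non-cycling stem cells of the same library, which had at least 5 UMIs of Lgr5 and Olfm4 and no UMI of Mki67 or Top2a (107, 31 and 281 cells). The rule itself divided these classes, so the differences are a description. The cycling cells were deeper, at medians of 13370, 12947 and 12710 UMIs against 8491, 7601 and 8020. UMIs were summed over the cells of each class, scaled to CPM, and compared as log2 ratios with a pseudocount of 5 CPM for genes reaching 20 CPM in a class compared. Of 7443 genes, 130 (1.75%) had cycling stem cells at least 2-fold above in all 3 libraries and 2 (0.0269%) had them below by that factor, and at 1.5-fold the counts were 206 (2.77%) and 11 (0.148%). Because the retinoic acid library had 31 non-cycling cells, the count was repeated without it and gave 169 higher and 4 lower.

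Mitosis genes were the list with the most members higher. Of its 57 measured genes, 54 were at least 1.5-fold higher in cycling stem cells in all 3 libraries and 49 at least 2-fold, with a median log2 ratio of 2.58 beside about 0 over all genes. Kif11, the kinesin that pushes spindle poles apart, stood at 129 CPM with vehicle, 127 CPM with retinoic acid and 138 CPM without vitamin A, against 4.16, 0 and 5.06 CPM in non-cycling stem cells. Prc1, which bundles the central spindle, stood at 179, 135 and 190 CPM against 10.4, 7.59 and 5.91 CPM, a 17.2-fold, 17.8-fold and 32.1-fold difference. Both are among the 12 highest genes, whose ranking required the same direction in all 3 libraries, so that agreement follows from the choice. Aurora kinase A (Aurka) was 20.6-fold, 11.9-fold and 22.3-fold higher, and the mitotic kinase Plk1 9.90-fold, 24.9-fold and 18.3-fold. Nusap1, Aurkb, Hmmr, Cenpf, Kif22 and Ccnb1 (cyclin B1) completed the highest genes with 2 histones.

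Replication genes differed less than mitosis genes. The non-cycling class is named for its lack of Mki67 and Top2a UMIs only, and it held replication UMIs. Their medians per 10000 were 30.3, 36.4 and 20.4, against 40.5, 49.3 and 42.6 in cycling stem cells. Replication UMIs outnumbered mitosis UMIs in 77.6%, 74.2% and 74.7% of the non-cycling stem cells. Of the 37 measured DNA replication genes, 7 were at least 1.5-fold higher in all 3 libraries and 1, Ung, lower, with a median log2 ratio of 0.44. Rrm2, the ribonucleotide reductase subunit made in S phase, was 164, 175 and 197 CPM in cycling stem cells against 74.9, 45.6 and 25.3 CPM. Ung, a uracil DNA glycosylase, was 59.8, 87.9 and 49.2 CPM against 112, 167 and 99.1 CPM, and so was lower in the cycling cells of every library. Histone genes divided in a like way. Of 12 measured, 10 were at least 1.5-fold higher, led by Hist1h1b, a linker histone, at 771, 909 and 765 CPM against 49.9, 53.1 and 23.2 CPM. Hist1h2bc was the exception, at 30.1, 30.2 and 28.1 CPM in cycling stem cells against 96.8, 79.7 and 77.6 CPM.

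Genes lower in cycling stem cells were few. Mxd4, a MAX partner that opposes Myc, was 11.7, 14.2 and 19.7 CPM against 38.5, 45.6 and 67.5 CPM, 3.29-fold, 3.21-fold and 3.43-fold lower. With Hist1h2bc it made up the 2 genes lower by 2-fold on the log2 scale with pseudocount in all 3 libraries, and the other named low genes (Wdfy1, Ung, Ypel3, Fbxl20, Anpep, Ctsl, Foxn3, Bckdha, St3gal4 and March9) stayed under that size in at least 1 library. Of 20 measured stem cell genes and 12 Wnt feedback and target genes, 0 were 1.5-fold apart in all 3 libraries, beside 2.77% of all genes higher and 0.148% lower, a share at which lists of this size hold few or no such genes. Ascl2 was 68.0, 80.1 and 83.3 CPM in cycling and 55.1, 79.7 and 72.6 CPM in non-cycling stem cells. Smoc2, a secreted stem cell marker, was 596, 492 and 635 CPM against 573, 478 and 681 CPM. None of 28 ribosome biogenesis genes was 1.5-fold apart either. Among G1 regulators, Ccnd2 (cyclin D2) was 476, 566 and 305 CPM in cycling stem cells and 607, 695 and 491 CPM in non-cycling ones.

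Cycling stem cells were next set against cycling cells of the same library with no Lgr5 or Olfm4 UMI (271, 186 and 275 cells), whose median depths of 13466, 13178.5 and 13054 UMIs were close to theirs. The rule divided these classes too. Of 7181 genes, 61 (0.849%) had cycling stem cells above by 2-fold or more in all 3 libraries and 136 (1.89%) had them below. At 1.5-fold there were 226 higher (3.15%) and 324 lower (4.51%). The median over all genes was about 0.07 in each library.

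Stem cell and Wnt genes were the higher groups. Of 18 measured stem cell genes 16 were at least 1.5-fold higher, with a median log2 ratio of 1.52, and so were 8 of 12 Wnt genes. Ascl2 was 68.0, 80.1 and 83.3 CPM against 7.53, 5.91 and 6.96 CPM, and the Wnt feedback gene Axin2 133, 134 and 155 CPM against 23.7, 17.4 and 22.0 CPM. Igfbp4, an insulin-like growth factor binding protein, was 36.1, 27.02 and 48.7 CPM against 1.95, 1.48 and 1.39 CPM. In each of these genes the lowest library of the stem class was above the highest of the other class. They are shown for their large ratios in these same data, so this gap is a description. Genes outside the fixed lists also stood among the 12 highest. Rgcc, a regulator of the cell cycle, was 486, 352 and 500 CPM against 88.4, 33.2 and 73.2 CPM, and the interferon-induced membrane protein gene Ifitm3 was 280, 418 and 326 CPM against 58.3, 31.0 and 49.3 CPM. Cdo1 (cysteine dioxygenase), Sorbs2, Gkn3 and Sesn3 were higher as well.

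The mitosis list had a median log2 ratio of 0.01 between the dividing classes, beside about 0.07 for all genes. At 1.5-fold, 1 of its 57 genes was higher beside 3.15% of all genes, so this count is no result about the list. Of 37 replication genes 9 were higher at that size, with a median of 0.55. Mcm2 and Mcm4, subunits of the replicative helicase, were 79.1, 90.2 and 69.4 CPM and 98.4, 116 and 95.02 CPM in cycling stem cells, against 40.4, 49.5 and 44.6 CPM and 60.5, 56.9 and 56.0 CPM. Nucleotide and polyamine synthesis had 3 of 20 genes higher and ribosome biogenesis 3 of 28, beside the same 3.15% of all genes. Cell cycle inhibitors differed among themselves. Cdkn2b (p15) was 12.5, 11.0 and 9.63 CPM against 101, 92.3 and 47.3 CPM. Cdkn1a (p21) was 61.7, 41.2 and 53.9 CPM against 206, 91.2 and 171 CPM. Cdkn1b (p27) was not lower, at 115, 118 and 110 CPM against 97.4, 73.1 and 99.1 CPM.

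Enterocyte genes formed the lower group, with 20 of 27 at least 1.5-fold lower and 1 higher. Rbp2, the cellular retinol binding protein of enterocytes, was 311, 625 and 295 CPM in cycling stem cells against 1531, 2331 and 1773 CPM. Arg2 (arginase 2) was 48.4, 28.4 and 48.4 CPM against 282, 159 and 428 CPM. St3gal4, a sialyltransferase, had the lowest ratio, at 35.3, 9.62 and 38.5 CPM against 277, 87.1 and 335 CPM. Beside 4.51% of all genes, FXR and bile acid genes were lower in 5 of 7, PPAR and fatty acid oxidation genes in 10 of 35, and retinoid metabolism genes in 5 of 13. Goblet genes were lower in 6 of 10 in these sums, which rested on few cells. In cycling cells without a stem marker UMI, the 10 richest cells held 80.0%, 69.7% and 69.4% of the goblet UMIs. The median cell went the other way, at 2.67, 3.44 and 3.29 goblet UMIs per 10000 in cycling stem cells against 1.69, 2.47 and 1.93.

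Within the selected cells, the balance of replication and mitosis genes varied from cell to cell. The 10th to 90th percentiles of replication UMIs per 10000 ran from 16.4 to 80.3 with vehicle, 24.1 to 83.6 with retinoic acid and 16.0 to 81.5 without vitamin A, with medians of 40.5, 49.3 and 42.6. Those of mitosis UMIs ran from 28.9 to 161, 27.9 to 147 and 28.9 to 171, with medians of 102, 73.2 and 94.8. These ranges overlapped between libraries. Replication UMIs outnumbered mitosis UMIs in 108 of 373 cells with vehicle (29.0%, 24.4 to 33.8), 60 of 151 with retinoic acid (39.7%, 31.9 to 48.0) and 165 of 546 without vitamin A (30.2%, 26.4 to 34.3). The retinoic acid cells had the highest replication median and the lowest mitosis median, and their sum of Mki67 and Top2a, which the rule used, was also lowest.

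**Figure D2:**
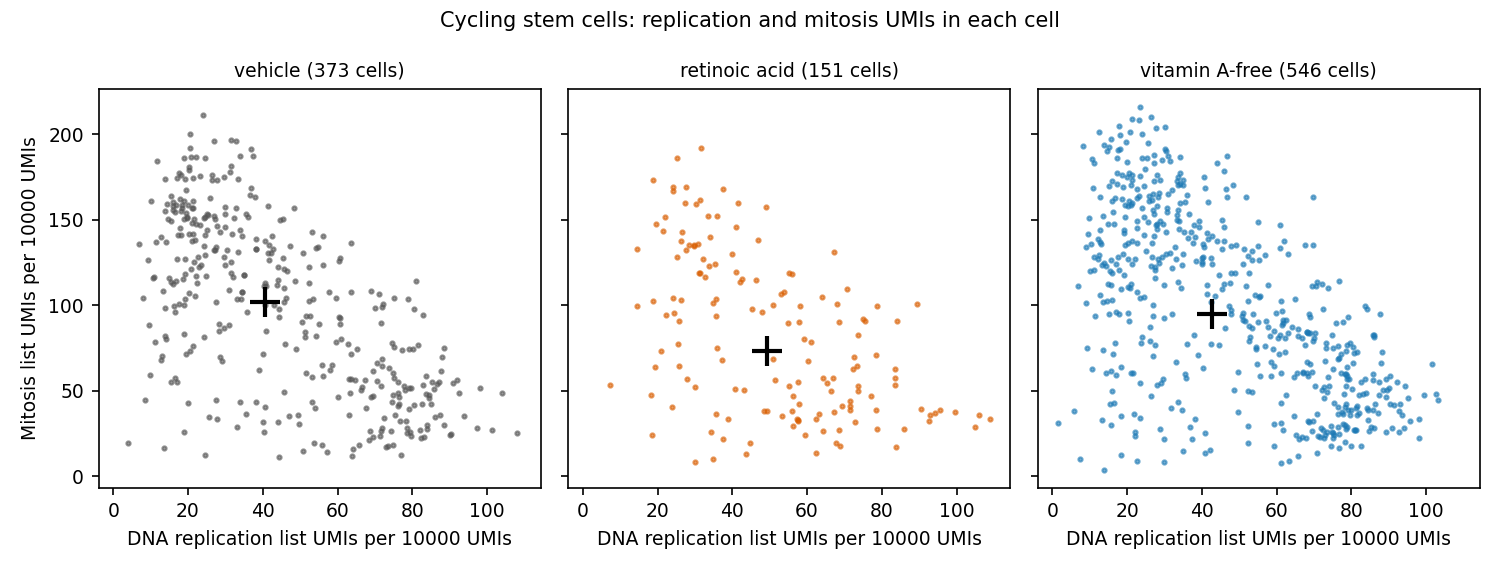
UMIs of the DNA replication list (x axis) and of the mitosis list (y axis) per 10000 UMIs in each selected cell, 1 panel per library, with the median as a cross. The cross for retinoic acid, at 49.3 and 73.2, lies lower and further right than the other two.

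Retinoic acid and vehicle were compared within the selected cells. Glycolysis and hypoxia genes were lower with retinoic acid, and several PPAR targets stood higher, as did secretory markers. Stem cell, Wnt and replication genes showed no member 1.5-fold apart, but lists of this size hold few or no such genes at the shares below. Of 6700 genes, 34 were higher by 2-fold or more (0.507%) and 52 lower (0.776%). At 1.5-fold or more, 184 were lower (2.75%) and those higher made up 1.57%. The median log2 ratio of all genes was 0.00. As the only measure of spread between libraries of 1 condition, dividing cells of the 2 day-1 vehicle libraries had 21 of 6330 genes (0.332%) at least 2-fold apart either way, with a median absolute log2 ratio of 0.09 and a 95th percentile of 0.31. The day-1 sums are of other cells at another time, so they give only a rough scale. They also pooled 4207 and 3240 cells, against 373 selected cells with vehicle and 151 with retinoic acid. Counting error was therefore smaller in the day-1 sums, and the spread at the depth of the selected cells was not measured.

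Of the 23 measured glycolysis and hypoxia genes, 22 were at least 1.5-fold lower with retinoic acid and 17 at least 2-fold lower, with a median log2 ratio of -1.30. Slc16a3, the lactate exporter MCT4, stood at 110 CPM with vehicle (95% interval 101 to 120), 7.79 CPM with retinoic acid (4.54 to 12.5) and 134 CPM without vitamin A (125 to 142). The retinoic acid library was therefore apart from both others, 14.1-fold below vehicle. Egln3, an oxygen-sensing prolyl hydroxylase, stood at 71.1, 6.41 and 86.8 CPM, 11.1-fold lower with retinoic acid, and Bnip3, a mitophagy receptor, at 115, 13.7 and 122 CPM, 8.36-fold lower. The glycolytic enzymes themselves were lower by a smaller factor at much higher levels. Ldha (lactate dehydrogenase A) stood at 3328, 1563 and 3090 CPM, Pgk1 (phosphoglycerate kinase) at 2117, 693 and 2425 CPM, and Aldoa (aldolase A) at 1855, 716 and 1975 CPM. Hk2 (hexokinase 2) was the member under 1.5-fold, at 20.5, 16.0 and 17.6 CPM. The glucose transporter Slc2a1 stood at 65.8, 28.4 and 79.1 CPM.

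**Figure D3:**
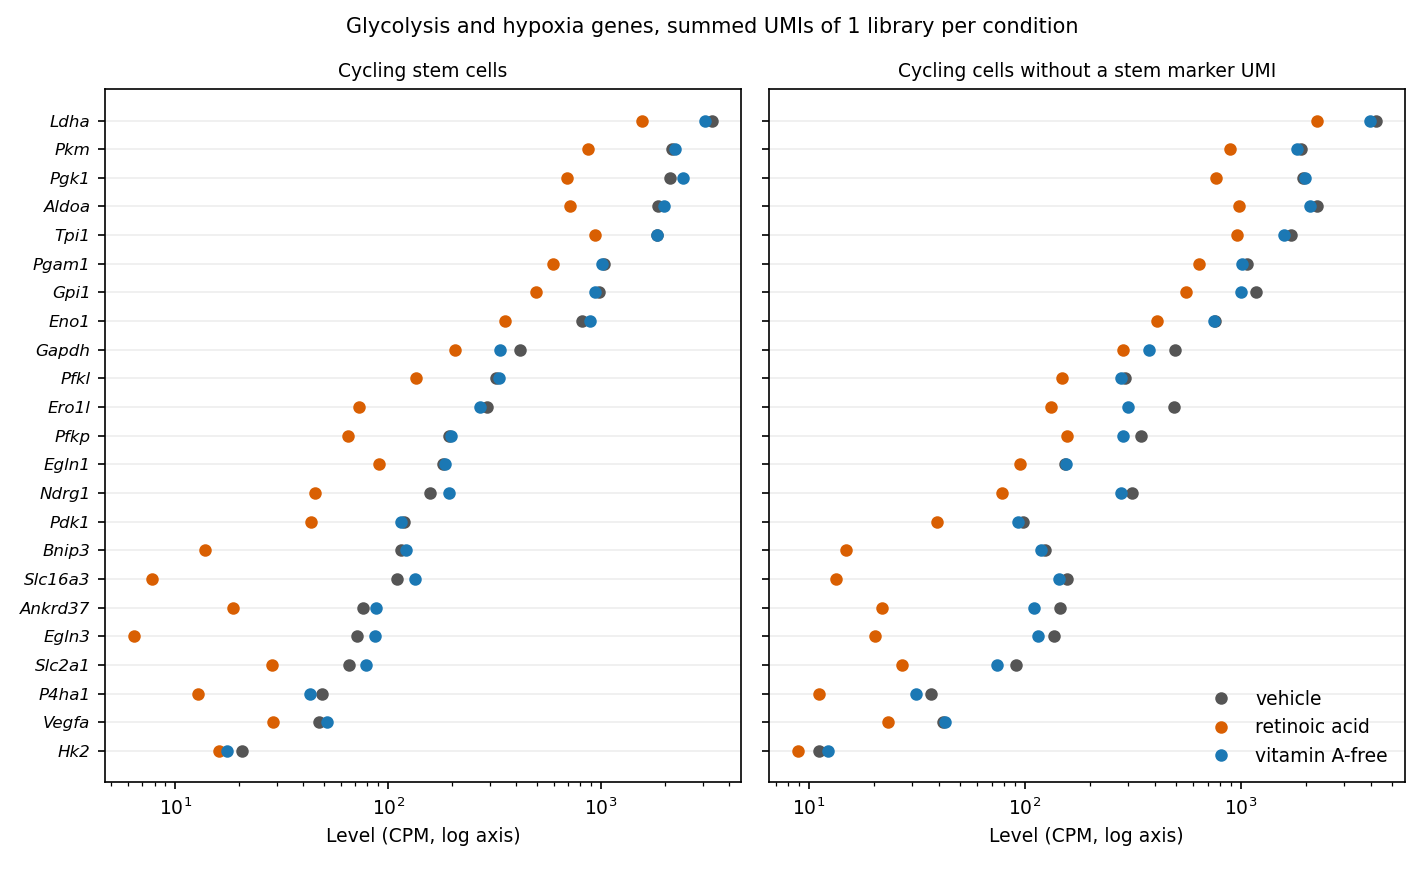
Level (CPM, log axis) of the 23 measured glycolysis and hypoxia genes in cycling stem cells (left) and in cycling cells without a stem marker UMI (right), 1 point per library. The retinoic acid point lies to the left of the vehicle point for every gene in both classes, while vehicle and vitamin A-free points lie close together.

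The lower level was spread over the cells. UMIs of the list per 10000 had a median of 163 with vehicle, 63.4 with retinoic acid and 165 without vitamin A. The 75th percentile with retinoic acid (78.2) was below the 10th percentile with vehicle (102) and without vitamin A (93.7), although the full ranges overlapped. No cell held more than 2.30% of the Slc16a3 UMIs with vehicle. In cycling cells without a stem marker UMI, 22 of 23 genes were also at least 1.5-fold lower with retinoic acid, with a median log2 ratio of -1.11. Over all genes in that class, 50 of 6506 were higher by 2-fold or more (0.769%) and 64 lower (0.984%), and at 1.5-fold 126 were higher (1.94%) and 242 lower (3.72%). All other barcodes had Slc16a3 at 161 CPM with vehicle and 44.9 CPM with retinoic acid. Oxidative phosphorylation genes, 29 of them measured, had none 1.5-fold apart in the cycling stem cells. There 1.57% of all genes were higher and 2.75% lower, so a list of this size holds few or no such genes.

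Further genes lower with retinoic acid included Ak4 (adenylate kinase 4) at 31.2 CPM with vehicle and 4.12 CPM with retinoic acid, and Aldoc (aldolase C) at 68.9 and 15.1 CPM. Ass1, an enzyme of arginine synthesis, stood at 52.5 and 8.70 CPM, and the small proline-rich gene Sprr2a3 at 61.3 and 10.53 CPM. Stc2 (stanniocalcin 2), a member of the integrated stress response list, stood at 76.7 and 17.9 CPM. In that list 4 of 17 genes were at least 1.5-fold lower, beside 2.75% of all genes. Nupr1, listed with the Paneth genes, stood at 48.2 and 7.79 CPM. Ctrb1, a chymotrypsinogen, had 120 UMIs with vehicle (23.4 CPM) and 0 with retinoic acid. It was at least 17.1-fold lower when 3 UMIs are taken as the floor of that library, and 1 cell held 40.8% of the vehicle UMIs. All other barcodes had Ctrb1 lower as well, at 768 CPM with vehicle and 9.54 CPM with retinoic acid. With vehicle the selected cells were at 3.05% of that level. Reg1, a secreted lectin, had 77.3 and 33.4 CPM, and 1 cell held 51.3% and 83.6% of them. Its direction turned when likely doublets were left out and when the thresholds were raised to 8 and 5 UMIs.

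Cell cycle lists moved by small amounts with retinoic acid. The counts here are at 1.5-fold, where 2.75% of all genes were lower and 1.57% higher. Mitosis genes had 5 of 57 lower and none higher, with a median of -0.33. Aurkb was 91.6 against 155 CPM and Nusap1 87.9 against 156 CPM. Histones had 3 of 12 lower and 1 higher, and replication genes had 0 of 37 in either direction with a median of 0.16. These values go with the larger replication and smaller mitosis medians per cell given above, and whether the mix of phases sets them was not tested. Immediate early genes had 3 of 13 lower, and cholesterol synthesis genes 3 of 25 lower, with medians of -0.41 and -0.27.

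Stem cell genes had no member 1.5-fold apart with retinoic acid, where 1.57% of all genes were higher and 2.75% lower. Of 18 measured, 0 passed, with a median of 0.02, and the same held for 12 Wnt genes (-0.01), 4 Notch genes (-0.12) and 14 G1 regulators (0.00). At these shares lists of this size hold few or no such genes, so a count of 0 is no result about a list. Ascl2 was 68.0 CPM with vehicle, 80.1 CPM with retinoic acid and 83.3 CPM without vitamin A. Axin2 was 133, 134 and 155 CPM, Smoc2 596, 492 and 635 CPM, and Slc12a2 630, 545 and 766 CPM. The widest of these genes was Clca3b, a chloride channel accessory gene, at 526, 709 and 491 CPM. The cell cycle inhibitor Cdkn1b (p27) was 115, 118 and 110 CPM and the cyclin Ccnd1 95.9, 102 and 80.9 CPM.

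PPAR and fatty acid oxidation genes had 10 of 32 at least 1.5-fold higher with retinoic acid and none lower, with a median of 0.29. Acot1, an acyl-CoA thioesterase, stood at 176, 400 and 230 CPM and Acadl, an acyl-CoA dehydrogenase, at 112, 206 and 177 CPM. Cpt1a, which admits fatty acids to mitochondria, stood at 17.2, 41.7 and 15.5 CPM. All other barcodes had these genes higher with retinoic acid too. With vehicle and retinoic acid they had Acot1 at 245 and 1472 CPM, Acadl at 271 and 964 CPM, and Cpt1a at 42.0 and 92.9 CPM. The selected cells were at 71.9% and 27.2%, 41.5% and 21.3%, and 41.0% and 44.9% of those levels. In cycling cells without a stem marker UMI, 18 of 35 genes of the list were at least 1.5-fold higher with retinoic acid, beside 1.94% of all genes in that class.

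Some of the higher genes followed the level in the rest of the library. Acaa1b, a peroxisomal thiolase, stood at 3.71 CPM with vehicle and 37.1 CPM with retinoic acid in the selected cells, and at 69.7 and 737 CPM in all other barcodes, so that the selected cells were at 5.32% and 5.03% of the others. Fabp1, the fatty acid binding protein of enterocytes, stood at 1267, 2579 and 772 CPM in the selected cells, which was 5.38%, 4.95% and 5.12% of the level in the other barcodes of each library. In addition, 10 cells held 72.0% of the Fabp1 UMIs with retinoic acid. The enterocyte list had 8 of 22 genes higher and 3 lower. Its summed level in the selected cells was 5333, 7779 and 4607 CPM, its 10 richest cells held 39.0%, 59.3% and 30.3% of the UMIs, and with vehicle 1 of its 33 genes was at 0. Whether free RNA or mixed barcodes supply these UMIs was not tested.

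Secretory markers were higher with retinoic acid but rested on few cells. Goblet genes had 5 of 7 at least 1.5-fold higher and Paneth genes 3 of 5, with 1 lower. Spink4 and Tff3, secreted with mucus, stood at 40.2 and 59.4 CPM with vehicle and 244 and 291 CPM with retinoic acid. Lyz1 (lysozyme), Defa24 (a defensin) and Mmp7, the protease that activates defensins, stood at 78.7, 55.8 and 1.76 CPM with vehicle and 360, 488 and 54.5 CPM with retinoic acid. For Defa24, 10 of the 151 cells held 94.9% of the UMIs, and for Spink4 89.9%. Mucus and guanylin genes showed the same concentration: Guca2a stood at 1.37 and 21.1 CPM with 41.3% of the retinoic acid UMIs in 1 cell. Ang (angiogenin) stood at 13.3 and 72.4 CPM, and Akr1b8, an aldo-keto reductase, at 8.20 and 45.3 CPM, with 11.4% and 12.1% in 1 cell. Both were also higher with retinoic acid in all other barcodes, Ang at 31.8 and 207 CPM and Akr1b8 at 48.9 and 433 CPM. The selected cells were at 41.8% and 35.0% of those levels for Ang and at 16.8% and 10.5% for Akr1b8. The median cell had 2.33 Paneth UMIs per 10000 with vehicle, 3.32 with retinoic acid and 3.82 without vitamin A, and 2.67, 3.44 and 3.29 goblet UMIs, so the typical cells were much closer than the sums. The goblet list summed to 405, 1084 and 603 CPM and the Paneth list to 715, 1606 and 1193 CPM, with 2, 1 and 2 of 14 and 5, 3 and 2 of 18 genes at 0. In all other barcodes Defa24 was lower with retinoic acid than with vehicle, at 122 against 543 CPM.

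**Figure D4:**
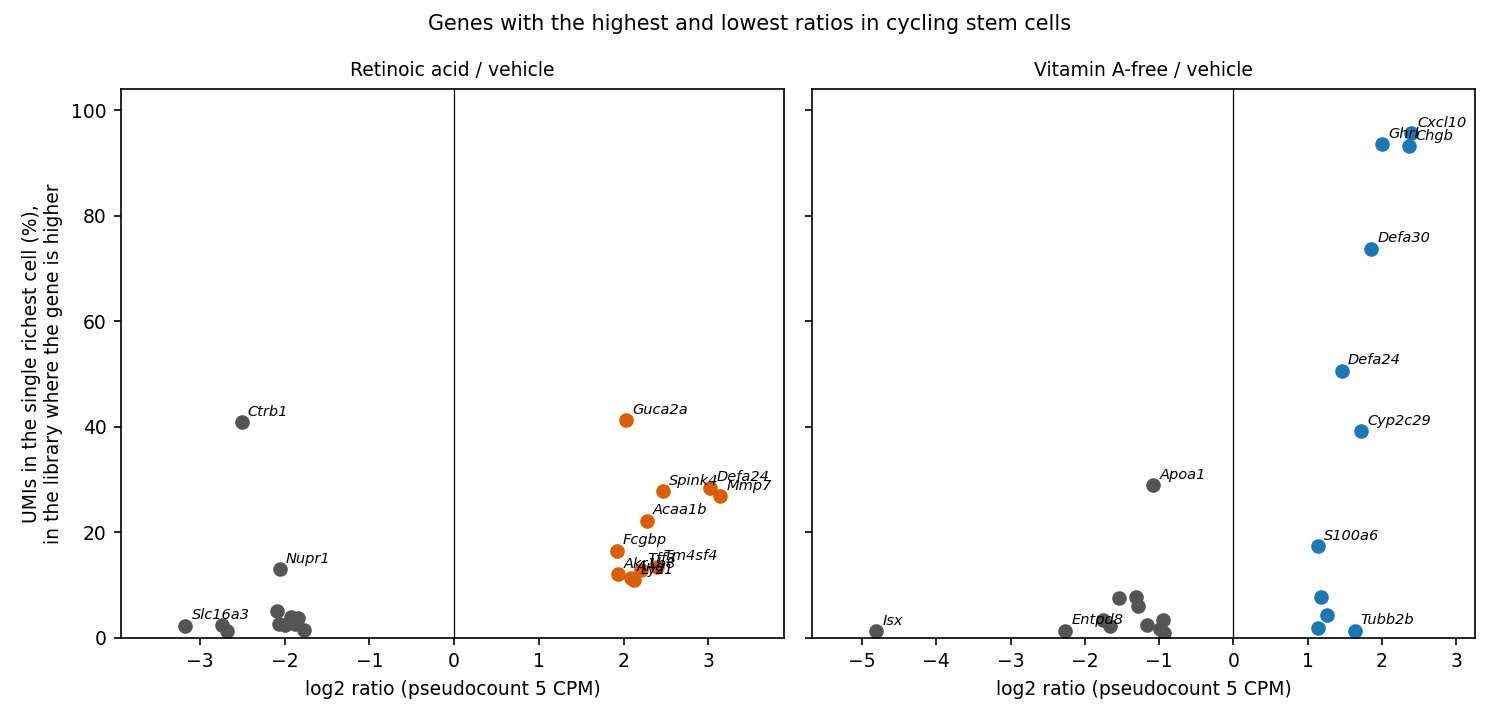
For the genes at the high and low ends of each comparison, the log2 ratio (x axis) and the percentage of the gene's UMIs that came from the single richest selected cell of the library where it is higher (y axis). The genes lower with retinoic acid are mostly spread over cells, as Slc16a3, while Chgb, Ghrl and Cxcl10 without vitamin A came from 1 cell for more than 93% of their UMIs.

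The retinoic acid response list had 2 of 5 measured members at least 1.5-fold higher with retinoic acid and none lower. Dhrs3, a retinaldehyde reductase, stood at 33.6 CPM with vehicle, 84.7 CPM with retinoic acid and 7.15 CPM without vitamin A. It was highest with added retinoic acid and lowest without vitamin A. Isx, an intestinal homeobox gene, stood at 135, 211 and 0 CPM. Cyp26b1, which degrades retinoic acid, was below 20 CPM in the selected cells and is named after its values were seen. The selected cells held 28 of its UMIs with retinoic acid and 0 in both other libraries. In all other barcodes it stood at 0.34 CPM with vehicle, 43.0 CPM with retinoic acid and 0.045 CPM without vitamin A. Cyp26a1 had no UMI in the selected cells of any library.

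Without vitamin A the selected cells were close to vehicle, apart from a short list. Of 6628 genes, 17 were higher by 2-fold or more (0.256%) and 9 lower (0.136%). At 1.5-fold there were 47 higher (0.709%) and 27 lower (0.407%). In cycling cells without a stem marker UMI, 15 (0.231%) were higher and 10 (0.154%) lower of 6504. These counts stand beside the 21 of 6330 genes (0.332%) that were 2-fold apart, in either direction, between the day-1 libraries of 1 condition. The day-1 sums pooled more cells and so had less counting error. Single genes are therefore given here by their size and their spread over cells.

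**Figure D5:**
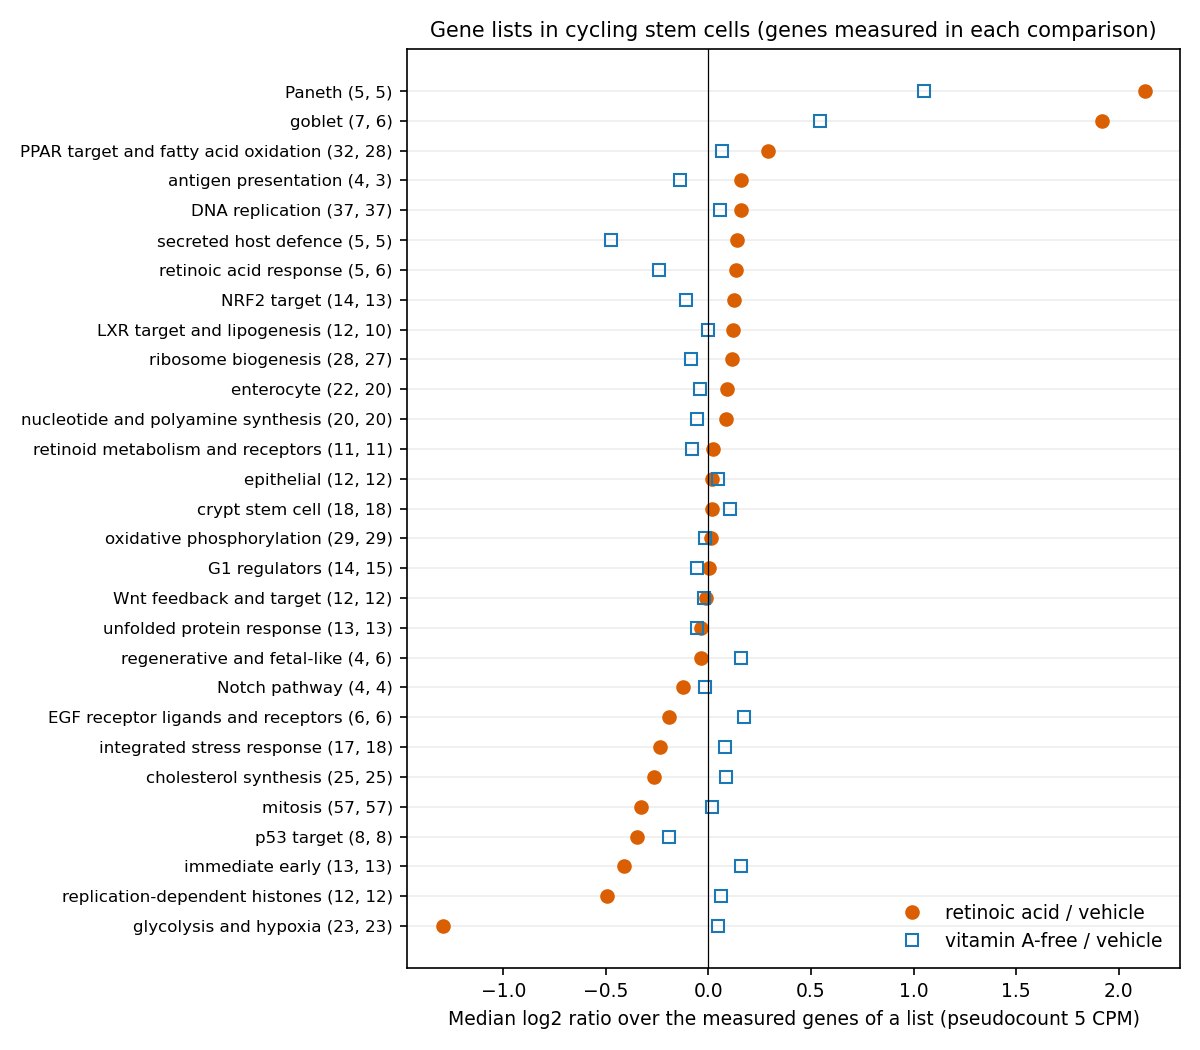
Median log2 ratio over the measured genes of each list in the selected cells, for retinoic acid against vehicle (filled circles) and vitamin A-free medium against vehicle (open squares), with the numbers of genes measured. The glycolysis and hypoxia list lies at -1.30 for retinoic acid and at 0.05 for vitamin A-free medium, and the stem cell list lies near 0 in both. Both comparisons share the vehicle library.

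Isx had the largest difference. It had 691 UMIs in the 373 vehicle cells (135 CPM, 125 to 145), 460 UMIs in the 151 retinoic acid cells and 0 UMIs in the 546 vitamin A-free cells, which held 7272084 UMIs. Taking 3 UMIs as the floor, it was at least 327-fold lower than with vehicle. Isx is known to repress Scarb1, a scavenger receptor that takes up carotenoids and lipids, and Bco1, which cleaves carotene to vitamin A aldehyde. Scarb1 stood at 16.8 CPM with vehicle, 12.4 CPM with retinoic acid and 34.7 CPM without vitamin A, 2.06-fold above vehicle (1.61 to 2.67). Bco1 was below 20 CPM in the selected cells, at 1.17, 0.92 and 2.48 CPM, while all other barcodes had it at 1.41, 0.92 and 52.3 CPM.

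The other genes lower without vitamin A had at most 7.75% of their vehicle UMIs in 1 cell among those named here, with the exception of Apoa1. Entpd8, an ectonucleotidase, stood at 56.8 CPM with vehicle, 75.1 CPM with retinoic acid and 7.84 CPM without vitamin A, 7.25-fold below vehicle (5.44 to 9.81). Ms4a8a, a membrane protein gene, was 5.72-fold lower at 5.09 against 29.1 CPM, Adh6a, an alcohol dehydrogenase, 3.25-fold lower at 27.6 against 89.8 CPM, and Aoc1, a diamine oxidase, 3.52-fold lower at 7.15 against 25.2 CPM. All other barcodes also had Entpd8, Ms4a8a, Adh6a and Aoc1 lower, at 18.3 against 48.5, 51.7 against 167, 580 against 1141 and 80.0 against 158 CPM. With vehicle the selected cells were at 117%, 17.4%, 7.87% and 15.9% of those levels. Whether free RNA supplies these UMIs was not tested. Gkn3, a gastrokine that was among the genes highest in the stem class, stood at 48.2, 81.1 and 16.9 CPM, and was at 3.54 to 4.02 CPM in all other barcodes. Lypd8, a secreted protein that binds bacteria, stood at 844, 1241 and 375 CPM. It kept the same order in all other barcodes, with the selected cells at 22.1%, 21.0% and 22.0% of them. Apoa1 had 113 and 50.9 CPM, and 1 cell held 28.9% of the vehicle UMIs. Its log2 ratio of -1.08 went to 0.00 when likely doublets were removed.

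The genes higher without vitamin A were of 2 kinds. Tubb2b, a beta-tubulin, stood at 33 CPM with vehicle, 16.9 CPM with retinoic acid and 113 CPM without vitamin A, 3.41-fold above vehicle (2.89 to 4.05). No vitamin A-free cell held more than 1.34% of its UMIs. Ttr (transthyretin), which carries retinol with its binding protein, stood at 47.5, 24.7 and 111 CPM. S100a14 stood at 7.62, 4.58 and 25.2 CPM, and S100a6, a calcium-binding protein, at 15.6, 9.16 and 40.3 CPM, with 17.4% of the vitamin A-free UMIs in 1 cell. Tm4sf4, a tetraspan membrane protein gene, was above vehicle in both treatments, at 8.20, 64.6 and 24.8 CPM. All other barcodes had Tm4sf4 in the same order, at 106, 1015 and 143 CPM. The selected cells were at 7.73%, 6.36% and 17.3% of those levels. By contrast, 1 cell held 93.2% of the Chgb UMIs, 93.5% of the Ghrl UMIs, 95.7% of the Cxcl10 UMIs and 73.8% of the Defa30 UMIs. Chgb and Ghrl are hormone granule and ghrelin genes of enteroendocrine cells, whose list summed to 29, 49 and 145 CPM. Chgb and Ghrl turned in direction when likely doublets were removed, and Defa24, Defa30 and the median of the Paneth list when the thresholds were raised. Itln1, a lectin of Paneth and goblet cells, was spread over 398 cells and stood at 518, 639 and 806 CPM, 1.56-fold above vehicle.

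Several lists held no gene 1.5-fold apart without vitamin A, where 0.709% of all genes were higher and 0.407% lower at that size, so a count of 0 is no result about a list. Stem cell genes had 0 of 18 at least 1.5-fold apart (median 0.11 beside -0.01 for all genes), Wnt genes 0 of 12, replication genes 0 of 37, mitosis genes 0 of 57 and glycolysis and hypoxia genes 0 of 23. Among G1 regulators, the cyclin gene Ccnd2 stood at 305 CPM without vitamin A, 476 CPM with vehicle and 566 CPM with retinoic acid, and it was the 1 of 15 genes beyond 1.5-fold. The share of stem marker cells that met the cycling rule was 62.3% with vehicle, 65.9% with retinoic acid and 51.9% without vitamin A, a description of the rule's own values.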

How the data were processed

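Droplet 3′ single-cell RNA libraries were measured with unique molecular identifiers. The deposited matrices hold whole-number UMI counts per gene and barcode, made by the authors with bcl2fastq 2.17 and Cell Ranger 3.1.0 on GRCm38, per the submitters' processing notes. All deposited barcodes entered. Counts were summed over the selected cells of a library (5121169, 2183661 and 7272084 UMIs), scaled to CPM, and compared as log2 ratios with a pseudocount of 5 CPM among genes at 20 CPM or more. A fold given for a single gene is the plain ratio of its CPM values. Intervals are exact (Poisson or binomial, 95%). With 1 library per condition no test was made. The members and gene lists were chosen with earlier results of these data known. Named genes are the 12 highest and 12 lowest of each comparison, up to 4 of each list, and all measured stem, retinoic acid response and G1 genes, except 1 gene that is not reported here. Scrublet scores (scanpy 1.11.5) marked likely doublets, which were removed only as an alternative, as the caller's own threshold marked 0.0373% to 1.35% of barcodes. Other alternatives were TMM (edgeR 4.0.16) and DESeq2 1.42.0 size factors, other floors and pseudocounts, stricter thresholds and thinning to 5000 UMIs. The summing and counting were tested on simulated data.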

Additional observations from a re-analysis of the deposited data

How the results depend on the processing

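The share of selected cells, 7.79%, 2.81% and 11.0% with vehicle, retinoic acid and vitamin A-free medium, was 4.21%, 1.30% and 5.79% after thinning to 5000 UMIs and 5.60%, 1.99% and 7.72% with thresholds of 8 and 5 UMIs. Counts of genes 2-fold apart depended on the floor. With a floor of 50 CPM, 20 genes were higher and 33 lower with retinoic acid (34 and 52 at 20 CPM), 8 higher and 5 lower without vitamin A (17 and 9), 83 higher in cycling than non-cycling stem cells (130) and 39 higher than in cycling cells without stem markers (61). With no floor, 62 were higher and 80 lower with retinoic acid, and 27 higher without vitamin A. Without the retinoic acid library, an alternative chosen after seeing the data, 4 genes in place of 2 were lower in cycling than non-cycling stem cells. The 136 genes lower than in cycling cells without stem markers ranged from 106 to 172.

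With likely doublets removed, the log2 ratio of Reg1 under retinoic acid went from -1.10 to 2.03, and without vitamin A that of Apoa1 from -1.08 to 0.0046, of Chgb from 2.36 to -0.76 and of Ghrl from 2.00 to -0.072. With stricter thresholds, Reg1 went to 0.038, and without vitamin A Defa24 went from 1.46 to -0.82, Defa30 from 1.85 to -0.54 and the median of the Paneth list from 1.05 to -0.54. The cause was not tested. Counting each list median once under each alternative, 662 values moved little and 51 moved further, and for the log2 ratios of named genes 3676 moved little and 115 further. No paired analysis was possible because each day-4 condition was 1 library and the results come from no test. Counts per gene limit low genes most, and the 151 cells with retinoic acid limit that library.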
